A study of Rattus norvegicus with 12 samples.

Results

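Fibroblast growth factors (FGFs), their receptors and the Sprouty inhibitors were examined in the pubertal rat mammary gland after a low protein diet of the mother. The set held 10 genes, chosen by name: the ligands Fgf1, Fgf2, Fgf7 and Fgf10, the receptors Fgfr1, Fgfr2, Fgfr3 and Fgfr4, and the feedback inhibitors Spry1 and Spry2. They were 10 of the 26456 genes named on the array and were read by 15 of its 30367 probes. The animals were female Wistar rats. LP rats were born to dams fed 8.8% protein throughout pregnancy and NP rats to dams fed 17% protein. From birth onwards the dams of both groups had standard chow. They nursed the young, which were weaned to standard chow at day 21. Total RNA of the lumbar mammary gland, freed of visible lymph nodes and otherwise whole, was taken on day 21 or day 28 of life, the start and the end of pubertal ductal growth. Each of the 4 groups (NP d21, LP d21, NP d28 and LP d28) held 3 rats, with 1 single-colour array per rat.

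In the mammary gland, FGFs made by the stroma act on receptor tyrosine kinases of the epithelium. Fgf7 and Fgf10 come from the fat pad and its fibroblasts and bind the epithelial splice form of Fgfr2, whose signal drives the outgrowth of ducts and terminal end buds. Ligand, receptor and heparan sulfate form a complex that switches on Frs2, Ras and the ERK kinases. Sprouty proteins are made in answer to that signal and dampen it.

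Several of the receptor probes could be compared directly, because Fgfr1 and Fgfr2 are paralogs and the array reads both at stretches that can be laid side by side. The pairs show the stretches read by both Fgfr1 probes and by probes 2 and 3 of Fgfr2. The main probe of Fgfr2, on which most values of that gene rest, and its probe 4 are not printed. All 4 printed probes have 60 bases, lie on the minus strand of the rn4 genome by the array's annotation, and are written 5′ to 3′. Capitals mark the bases that are identical to the paralog's probe when both are laid side by side.
Fgfr1, probe 2, chr16:70870258-70870317: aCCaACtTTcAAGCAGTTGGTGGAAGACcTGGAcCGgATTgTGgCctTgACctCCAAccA
Fgfr2, probe 3, chr1:189488370-189488429: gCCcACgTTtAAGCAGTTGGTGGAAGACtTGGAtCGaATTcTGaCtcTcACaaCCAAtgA
Fgfr1, main probe, chr16:70870022-70870081: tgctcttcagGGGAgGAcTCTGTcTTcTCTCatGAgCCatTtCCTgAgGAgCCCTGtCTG
Fgfr2, probe 2, chr1:189484518-189484577: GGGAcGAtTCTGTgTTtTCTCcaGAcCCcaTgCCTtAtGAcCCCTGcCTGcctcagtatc
The first pair shared 44 of 60 bases, with 18 identical bases in a row. The second pair overlapped over 50 bases, of which 36 were identical, with no more than 5 in a row.

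Values are log2 signals relative to the 75th percentile of the gene spots of the same array, so that 0 is the signal of that percentile and a difference of 1 is a 2-fold difference. All 15 probes were called well above background on all 12 arrays, and none of their spots was saturated. For a gene with several probes, the probe with the highest mean signal is the main probe. Differences were tested with limma in 1 fit over the 12 arrays and all 23209 probes that passed the filter on dim probes. A difference is said to pass at an unadjusted p under 0.05, and the Benjamini-Hochberg value over all tested probes is given as the adjusted p. The labels do not say whether the rats of a group came from separate litters, so that p values measure only the spread between these samples.

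The luminal epithelial markers (8 of 8 genes) and the fibroblast and adipocyte markers (7 of 7 each) were well above background on every array. One array stood apart. The mean of 7 B and T lymphocyte markers was -6.24 on LP d21 6a and between -1.02 and 0.36 on the other arrays, and only 4 of these 7 markers were well above background there. The same array had the highest mean of the luminal markers (0.97) and of the skeletal muscle markers (3.50). NP d28 4f had the lowest mean of the luminal markers (-1.08). Skeletal muscle markers ranged from -4.60 to 3.50 over the arrays. All d21 samples lay on one slide and all d28 samples on the other. Within each slide the NP samples lay in the upper row, as did 1 of the 3 LP samples.

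None of the 4 ligands differed between LP and NP at an unadjusted p under 0.05 at either age. Fgf7, the stromal ligand also known as keratinocyte growth factor, came closest. Its signals at day 28 were -2.96, -3.42 and -3.40 in NP rats and -3.50, -4.06 and -3.61 in LP rats. Each LP sample thus lay below each NP sample, with a mean difference of -0.46 (SE 0.22, limma adjusted p = 0.581), or 0.726-fold with a 95% confidence interval from 0.515 to 1.02. Without LP d28 4f it was -0.58 and passed. At day 21 the Fgf7 signals were -3.41, -3.67 and -3.05 in NP rats and -3.59, -3.79 and -3.24 in LP rats. The groups overlapped at that age, and the difference was -0.17 (SE 0.22). The change of the difference between the ages was -0.30 (SE 0.31, limma adjusted p = 1), so that the data did not separate the 2 ages. In whole tissue, fewer cells of a type and less RNA per cell cannot be told apart.

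Fgf10, the other stromal ligand of Fgfr2, was dim, with a mean signal of -4.78 over the 12 arrays. Its 2 spots on LP d21 6a read 95.9 and 35.7 units. Fgf10 gave values of -4.78, -4.96 and -4.40 in NP d21 and -4.92, -5.10 and -4.80 in LP d21. At day 28 they were -5.16, -4.69 and -4.39 in NP and -4.41, -4.79 and -4.94 in LP rats. The LP minus NP difference was -0.22 (SE 0.22) at day 21 and 0.03 (SE 0.22) at day 28. The groups overlapped at both ages.

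Fgf1, which binds all FGF receptors, had group means of -2.77 ± 0.07 in NP d21, -2.70 ± 0.24 in LP d21, -2.69 ± 0.35 in NP d28 and -2.56 ± 0.12 in LP d28 (SD, n = 3). The groups of each comparison overlapped. Fgf2, a ligand held in the extracellular matrix, had group means of -2.37 ± 0.20, -2.18 ± 0.37, -2.16 ± 0.23 and -1.94 ± 0.38 in the same order. The LP minus NP differences of Fgf2 were 0.19 (SE 0.23) at day 21 and 0.23 (SE 0.23) at day 28. The array carries 10 spots of the Fgf2 probe, whose SD within an array was 0.0445 to 0.127. The SD between rats of a group, 0.205 to 0.378, also holds the noise of extraction, labelling and hybridisation, since each rat had 1 array.

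**Figure D1:**
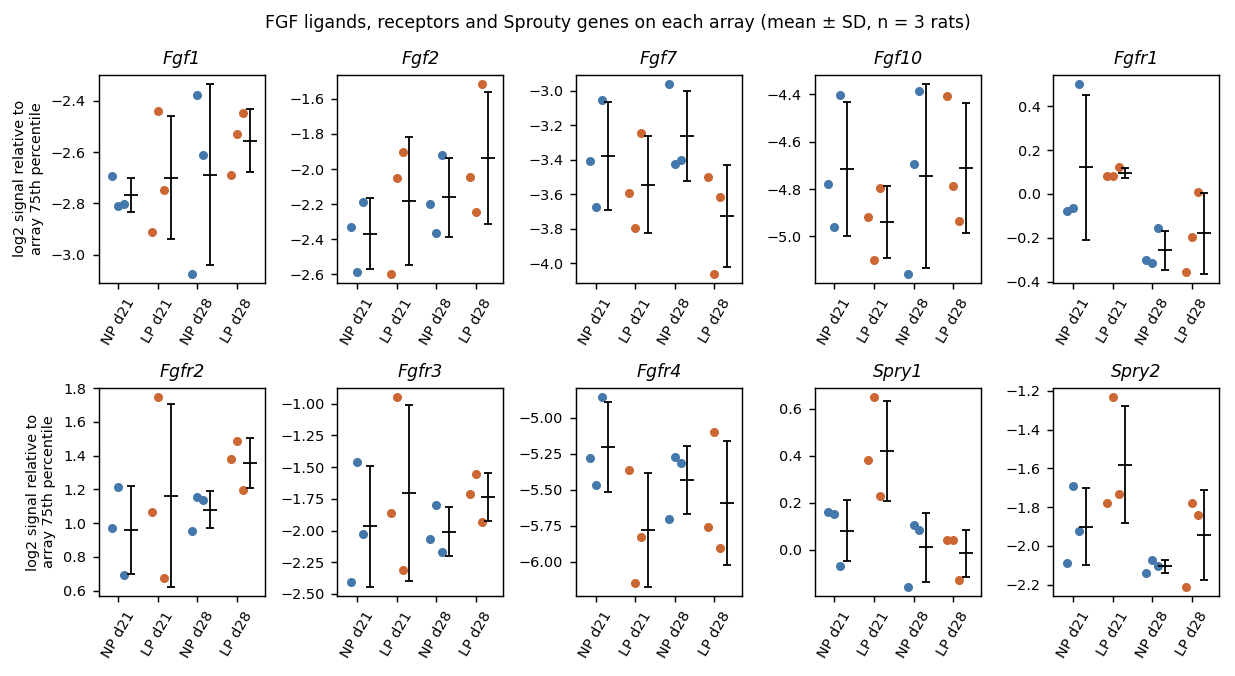
Log2 signal of the main probe of each gene, relative to the 75th percentile of the array (vertical axis, scaled for each gene), by group. Points are single rats (blue NP, orange LP) and bars the mean ± SD of 3 rats. Spry1 in LP d21 and Fgfr1 on both sides of the day 21 to day 28 step are separated from their comparison groups, and most other groups overlap.

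Fgfr1, a receptor of stroma and epithelium, did not pass between the diets at either age. The LP minus NP difference of its main probe was -0.03 (SE 0.16) at day 21 and 0.08 (SE 0.16) at day 28, and that of its second probe -0.02 (SE 0.15) and 0.07 (SE 0.15). The 95% confidence intervals of the main probe reached from 0.769-fold to 1.25-fold at day 21 and from 0.826-fold to 1.35-fold at day 28.

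Fgfr1 was lower at day 28 than at day 21. The main probe read -0.08, -0.06 and 0.50 in NP d21 and -0.30, -0.32 and -0.15 in NP d28, and 0.08, 0.08 and 0.12 in LP d21 and -0.36, -0.19 and 0.01 in LP d28. Within each diet every day 28 sample lay below every day 21 sample. Over both diets the difference was -0.33 (SE 0.11, limma adjusted p = 0.16), or 0.797-fold. It was -0.38 (adjusted p = 0.359) in NP and -0.28 (adjusted p = 0.604) in LP rats. The second Fgfr1 probe, printed above, gave -0.42 over both diets (SE 0.11, limma adjusted p = 0.0835). On that probe the samples of day 21 ranged from -0.27 to 0.28 and those of day 28 from -0.61 to -0.30, without overlap across the 12 arrays. The difference in NP rats rested partly on 1 rat, as it was -0.19 and did not pass without NP d21 6a. It also missed the limit without LP d21 4a, NP d28 4f, NP d28 5f or LP d28 6f, at values from -0.38 to -0.35. Since each age had its own slide and the rats were weaned at day 21, age, slide and weaning cannot be told apart. Red blood cell markers were lower at day 28, with means from 1.41 to 2.28 on the arrays of day 21 and from -0.05 to 0.81 on those of day 28. Nerve markers were lower at day 28 on average, with means from 0.96 to 1.98 at day 21 and from 0.61 to 1.17 at day 28. Their part in the differences between the ages, those of the Sprouty genes included, was not tested.

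Fgfr2, the main epithelial FGF receptor of the gland, read 0.97, 1.22 and 0.69 in NP d21 and 1.07, 1.75 and 0.68 in LP d21 on its main probe. At day 28 it read 0.95, 1.15 and 1.14 in NP and 1.38, 1.49 and 1.19 in LP rats. The LP samples of day 28 all lay above the NP samples, while at day 21 the groups overlapped. The LP minus NP difference was 0.27 (SE 0.24, limma adjusted p = 0.655) at day 28 and 0.20 (SE 0.24) at day 21. The array holds 3 further Fgfr2 probes. At day 21 the LP minus NP difference was 0.17 on probe 2, 0.27 on probe 3 and 0.22 on probe 4, so that all 4 probes were above 0, and none passed. Without LP d21 6a the day 21 difference of the main probe was -0.09. The groups did not overlap on probe 2 at that age. At day 28 the LP minus NP difference was 0.05 (SE 0.21) on probe 2, 0.14 (SE 0.23) on probe 3 and -0.39 (SE 0.28) on probe 4. Probe 4 alone was below 0 at day 28. Its annotated position covers only part of its 60 bases, and the splice form it reads was not assigned. Probes 3 and 4 are both dim, with mean signals of -4.18 and -4.93 over the 12 arrays. The main probe had a mean of 1.14 and probe 2 of -0.05. None of the 4 passed at day 28. Over both diets the Fgfr2 difference between the ages was 0.16 (SE 0.17) and did not pass, but without LP d21 6a, the highest of its samples, it was 0.30 and passed, as did the LP step of 0.48.

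Fgfr3 differed from NP by 0.26 (SE 0.33) at day 21 and 0.28 (SE 0.33) at day 28 in LP rats on its main probe, and by 0.35 (SE 0.33) and 0.41 (SE 0.33) on its second probe. The second probe is dim, with a mean signal of -4.79 against -1.85 on the main probe. All 4 differences were positive and none passed. At day 21 its main probe spread from -2.41 to -1.46 in NP rats and from -2.31 to -0.95 in LP rats, the widest spread within a group among the 10 genes (SD 0.69 in LP d21).

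Fgfr4 gave a dim signal. It read -5.28, -5.47 and -4.86 in NP d21 and -5.37, -6.15 and -5.83 in LP d21. The groups overlapped by 1 sample, and the difference was -0.58 (SE 0.27, limma adjusted p = 0.861). At day 28 it was -0.16 (SE 0.27). The day 21 value depended on the background correction, being -0.11 with the normexp background, and passed without NP d21 5a (-0.71) or LP d21 4a (-0.79).

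**Figure D2:**
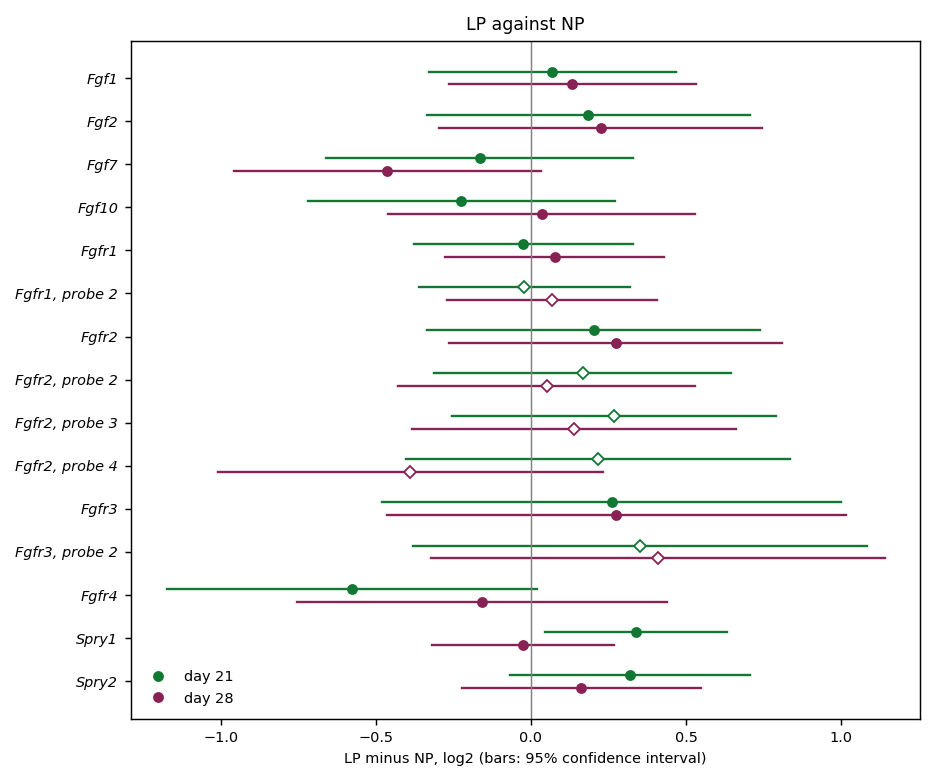
LP minus NP difference of each probe on the log2 scale (horizontal axis) at day 21 (green) and day 28 (purple), with bars for the 95% confidence interval of the limma fit. Filled circles are main probes and open diamonds further probes of the same gene. The interval of Spry1 at day 21 (0.04 to 0.63) is the only one that does not reach 0.

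Spry1, an inhibitor of receptor tyrosine kinase signalling, was the only member that passed between LP and NP rats. At day 21 it read 0.16, 0.15 and -0.07 in NP rats and 0.38, 0.65 and 0.23 in LP rats. Each LP sample was above each NP sample, and the difference was 0.34 (SE 0.13, limma adjusted p = 0.861), or 1.26-fold with a 95% confidence interval from 1.03 to 1.55. At day 28 the values were -0.16, 0.10 and 0.08 in NP and 0.04, 0.04 and -0.13 in LP rats. The groups lay on top of each other at that age, with a difference of -0.03 (SE 0.13). The change of the diet difference from day 21 to day 28 was -0.36 (SE 0.19, limma adjusted p = 1), so that the ages were not shown to differ. The day 21 difference was 0.22 without LP d21 6a, the array with the lowest lymphocyte and highest luminal marker levels, and 0.26 without NP d21 6a, and passed in neither case. It also missed the limit when only the 6 arrays of day 21 were fitted (0.34) and with the slide row as a covariate (0.35).

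Between the ages, Spry1 was lower at day 28 in LP rats (difference -0.44, SE 0.13, limma adjusted p = 0.35), where all day 28 samples lay below all day 21 samples. In NP rats the difference was -0.07 (SE 0.13, adjusted p = 0.865), and over both diets it was -0.25 (SE 0.09, adjusted p = 0.18). The value over both diets did not pass without LP d28 7f (-0.23) or with the normexp background (-0.19). The difference between those 2 steps is the same quantity as the change of the diet difference above, which did not pass in the fit of all arrays but did without LP d21 7c (-0.46) or NP d28 4f (-0.45).

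Spry2, the second Sprouty gene, read -2.09, -1.69 and -1.92 in NP d21, -1.78, -1.23 and -1.73 in LP d21, -2.14, -2.07 and -2.11 in NP d28, and -2.21, -1.78 and -1.84 in LP d28. The highest of these 12 values was again LP d21 6a. LP exceeded NP by 0.32 (SE 0.17, limma adjusted p = 0.861) at day 21 and by 0.16 (SE 0.17) at day 28, and these became 0.09 and -0.07 with the slide row as a covariate. Over both diets Spry2 was lower at day 28, with a difference of -0.28 (SE 0.12, limma adjusted p = 0.242). Without LP d21 6a this was -0.20 and did not pass, nor did it when any of 6 other arrays was left out or with the normexp background (-0.23).

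**Figure D3:**
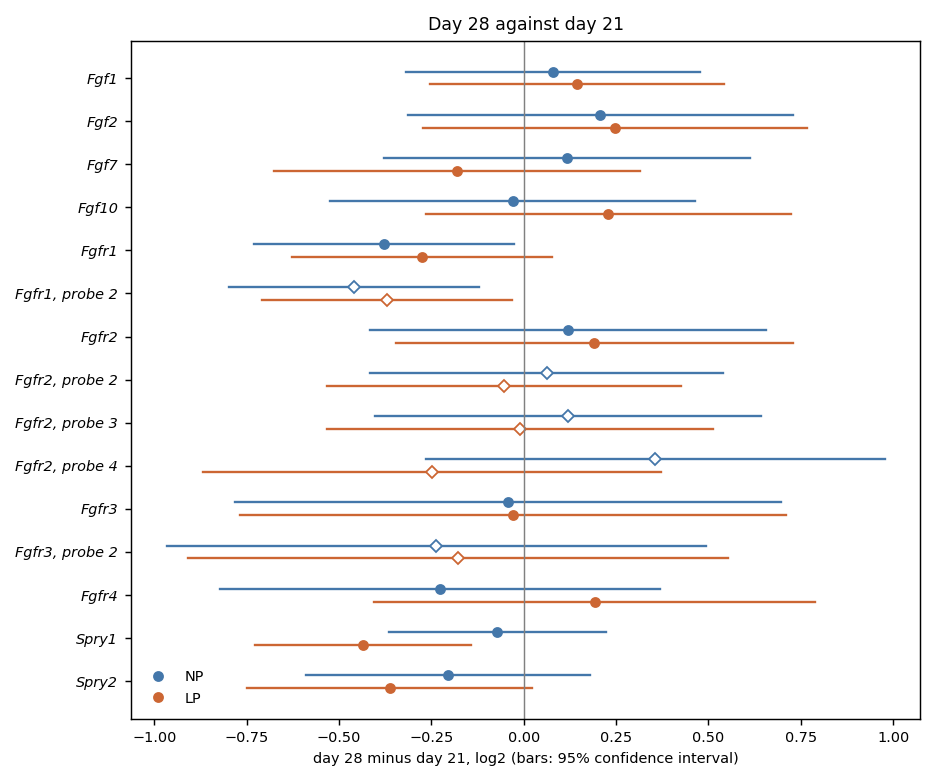
Day 28 minus day 21 difference of each probe on the log2 scale (horizontal axis) in NP (blue) and LP rats (orange), with bars for the 95% confidence interval of the limma fit. Filled circles are main probes and open diamonds further probes. Both Fgfr1 probes lie left of 0 in both diets, and Spry1 lies at -0.44 in LP and -0.07 in NP rats.

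Counted over the set, 1 of 10 genes (Spry1, higher) passed between LP and NP at day 21, against 4.34% of all 20197 tested genes. At day 28 it was 0 of 10 at an unadjusted p under 0.05 in limma, with 7.95% over all genes. The groups did not overlap for 1 member at day 21 (Spry1) and for 2 at day 28 (Fgf7 and Fgfr2), which happened for 11.6% and 16.8% of all genes. The median LP minus NP difference over the members was 0.13 at day 21 and 0.10 at day 28, beside 0.01 and -0.05 over all tested genes. Without LP d21 6a the day 21 median of the members was -0.05, beside 0.01 over all genes. In that fit 3 of 10 were higher in LP, against 10719 of the 20197 genes. Of the members 0 of 10 passed, while 175 of the 20197 genes passed as higher and 236 as lower. No member differed by 2-fold between the diets, and the 95% confidence intervals of the 10 main probes went down to 0.443-fold and did not reach 2-fold at day 21, and lay between 0.515-fold and 2.02-fold at day 28. At either age limma gave 0 of the 23209 probes a diet difference with an adjusted p below 0.05, while 1011 probes at day 21 and 1873 at day 28 were below 0.05 before adjustment.

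Between day 21 and day 28, 3 of 10 members passed over both diets (Fgfr1, Spry1 and Spry2), all lower at day 28. Of all genes 19% passed in this comparison and 8.59% passed in the lower direction. None of the 10 separated the 6 samples of each age completely on its main probe, which 3.63% of all genes did. In NP rats 1 of 10 passed (Fgfr1, lower), against 12.7% of all genes, and for 1 of 10, again Fgfr1, the groups did not overlap, against 18.7%. In LP rats 1 of 10 passed (Spry1, lower), against 9.85%, and for 3 of 10 (Fgfr1, Spry1 and Spry2, all lower) the groups did not overlap, against 18.4%. For Spry2 this was close to a tie, with -1.7805 in LP d21 4a and -1.7807 in LP d28 6f. For the change of the diet difference between the ages, 0 of 10 passed at an unadjusted p under 0.05 in limma, against 2.27%. The adjusted p was above 0.05 for all members in all 6 comparisons. The comparisons share samples, so that agreement between them is not independent.

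The members were next set against the level of luminal epithelium in each sample, as the mean of its 8 markers (Krt8, Krt18, Krt19, Epcam, Cdh1, Elf5, Esr1 and Prlr), none of which is a member. This was added after the values were seen, over 15 probes and 3 marker lists, or 45 relations. The permutations exchanged all 12 arrays regardless of group. Differences between the groups thus enter r and its p value, which do not measure the relation between rats of 1 group. Fgf7 was low where luminal markers were high, with Pearson r = -0.80 (permutation p = 0.00232, adjusted p = 0.0174) and Spearman rho = -0.93 (permutation p = 4.0e-05, adjusted p = 0.0018) over 12 arrays. Within the ages r was -0.80 at day 21 and -0.87 at day 28, with 6 arrays each. Without the 2 arrays farthest from the median luminal level, NP d21 4a and NP d28 4f, it was -0.80, and without LP d21 6a also -0.80. Against the 7 fibroblast markers Fgf7 had r = -0.62 (permutation p = 0.0323, adjusted p = 0.121) and rho = -0.70 (permutation p = 0.0144, adjusted p = 0.108), with -0.32 at day 21, -0.81 at day 28 and -0.67 without the 2 arrays farthest on that list.

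Fgfr2 and Fgfr3 ran the other way. Fgfr2 had r = 0.80 (permutation p = 0.00219, adjusted p = 0.0174) and rho = 0.81 (permutation p = 0.00249, adjusted p = 0.0332), with 0.85 at day 21, 0.83 at day 28 and 0.92 without the 2 farthest arrays. Fgfr3 had r = 0.83 (permutation p = 0.00079, adjusted p = 0.0174) and rho = 0.83 (permutation p = 0.00141, adjusted p = 0.0317), with 0.93 at day 21, 0.60 at day 28 and 0.87 without those 2 arrays. Leaving out LP d21 6a gave r = 0.69 for Fgfr2 and 0.73 for Fgfr3. Over all arrays, probe 3 of Fgfr2 and probe 2 of Fgfr3, both dim, gave 0.86 and 0.82, whereas probes 2 and 4 of Fgfr2 gave 0.49 and 0.25. Probe 2, the brightest of the further Fgfr2 probes, gave 0.20 at day 21, 0.78 at day 28 and -0.05 without the 2 farthest arrays. Of the 20189 tested genes outside the marker list, 3.48% had an r of 0.8 or more and 0.669% an r of -0.8 or less. The values share the array and its scaling.

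The correlation of Fgfr1 with the luminal markers did not pass (r = 0.00, permutation p = 0.993, adjusted p = 0.993, and rho = 0.08, permutation p = 0.817, adjusted p = 0.875). Against the adipocyte markers Fgfr1 had r = 0.63 (permutation p = 0.0269, adjusted p = 0.117) and rho = 0.43, with 0.79 at day 21 and 0.24 at day 28. Its second probe gave r = 0.64. The adipocyte mean was 1.64 in NP d21, 1.62 in LP d21, 1.44 in NP d28 and 1.56 in LP d28. Its part in the Fgfr1 difference between the ages was not tested. No adipocyte relation had an adjusted p under 0.05. Spry1 had r = 0.60 against the luminal markers (permutation p = 0.0381, adjusted p = 0.132) and rho = 0.38 (permutation p = 0.23, adjusted p = 0.493). Spry2 had r = 0.65 against the luminal markers (permutation p = 0.0211, adjusted p = 0.116) and rho = 0.63 (permutation p = 0.0328, adjusted p = 0.164). The r values of Spry1 and Spry2 fell to 0.32 and 0.40 when LP d21 6a was left out. Fgf1 followed the fibroblast markers with r = 0.79 (permutation p = 0.00212, adjusted p = 0.0174), but rho was 0.66 (permutation p = 0.0234, adjusted p = 0.15) and r was 0.54 without the 2 farthest arrays, LP d21 4a and NP d28 4f. The luminal marker mean itself was -0.43 ± 0.53 in NP d21, 0.26 ± 0.73 in LP d21, -0.39 ± 0.60 in NP d28 and 0.19 ± 0.10 in LP d28 (SD, n = 3). It was thus on average higher in LP than in NP rats at both ages, as were the means of Fgfr2 and Fgfr3, while that of Fgf7 was lower. For Fgfr2 and Fgfr3 this rested on LP d21 6a at day 21, as the differences were -0.09 and -0.12 without it. The 7 basal and myoepithelial markers, of which 6 were well above background on every array, moved like the luminal mean. Their means were -0.50 in NP d21, 0.12 in LP d21, -0.65 in NP d28 and -0.19 in LP d28. They too were highest on LP d21 6a (0.79) and lowest on NP d28 4f (-1.54), so that luminal and basal epithelium were not separated here. The part of these markers in the diet differences, the Spry1 difference at day 21 included, was not tested.

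**Figure D4:**
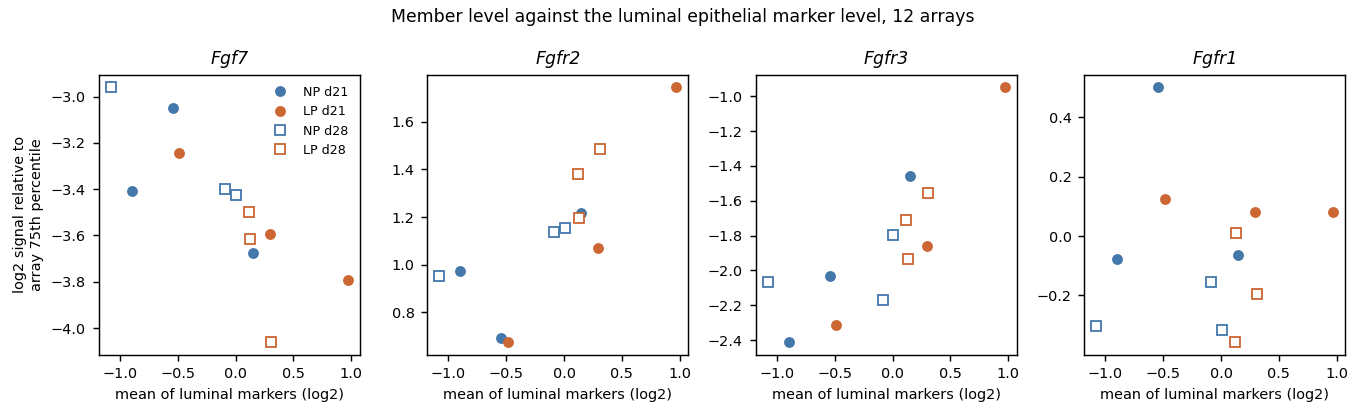
Log2 signal of Fgf7, Fgfr2, Fgfr3 and Fgfr1 (main probes, vertical axes) against the mean log2 level of 8 luminal epithelial markers (horizontal axis) in 12 samples. Blue is NP and orange LP, filled circles are day 21 and open squares day 28. Fgf7 runs downwards (r = -0.80), Fgfr2 and Fgfr3 run upwards (r = 0.80 and 0.83), and Fgfr1 shows no slope (r = 0.00).

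Among the remaining genes of the pathway, 66 were tested in 5 lists. Between LP and NP, 1 of 66 passed at day 21 (higher in LP), against 4.34% of all genes, and 3 of 66 at day 28 (1 higher, 2 lower), against 7.95%. The adjusted p was at least 0.581 for those named. Most other FGF ligands were dim: 9 of 17 did not pass the filter on dim probes, and Fgf6, Fgf8, Fgf14, Fgf20 and Fgf22 were well above background on 0 of 12 arrays. None of the 8 that were tested passed for diet at either age.

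The feedback inhibitors and transcriptional targets of the pathway were the list with the largest median diet difference at day 21 of the 5 lists (0.30 over 15 genes, beside 0.01 over all tested genes), and 12 of 15 were higher in LP. So were 10 of the 13 tested co-receptors and binding proteins at that age. Of the 15 feedback and target genes, Dusp5, a nuclear phosphatase of ERK, was the only one that passed. Its difference was 0.67 (SE 0.30, limma adjusted p = 0.861). The ETS factors Etv1, Etv4 and Etv5, which FGF signalling induces, differed by 0.43 (SE 0.20), 0.89 (SE 0.54) and 0.61 (SE 0.31) and did not pass. Dusp6, the cytoplasmic ERK phosphatase, differed by 0.18 (SE 0.14) and Spry4 by -0.16 (SE 0.17). Without LP d21 6a the list's median was 0.18, beside 0.01 over all genes. Of the list 12 of 15 were still above 0, against 10719 of all 20197 genes. In that fit 0 of 15 passed, while 175 of the 20197 genes passed as higher and 236 as lower. At day 28 the median was -0.02, and 7 of 15 were higher in LP.

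The adaptors and kinases between receptor and ERK formed the longest list. Their median diet difference was -0.04 at day 21 and -0.05 at day 28 over 18 genes, and Crkl, an adaptor, was the only one that passed at day 28 (-0.25, SE 0.11, limma adjusted p = 0.581). Of the 12 tested enzymes that make or trim heparan sulfate, Extl3 was lower in LP at day 28 (-0.31, SE 0.13) and Ext2 higher (0.27, SE 0.12), both chain-building glycosyltransferases with an adjusted p of 0.581. Extl3 also passed for the change of the diet difference between the ages (-0.46, SE 0.18, adjusted p = 1). Of the 13 tested co-receptors and binding proteins 0 passed for diet at an unadjusted p under 0.05 in limma.

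From day 21 to day 28, 7 of 66 passed over both diets, all lower at day 28, against 19% of all genes in either direction and 8.59% in the lower direction. Among them were Gpc3 (-0.37), a glypican co-receptor, Etv1 (-0.37), Ext2 (-0.31), Sulf2 (-0.27), an enzyme that removes sulfate groups from heparan sulfate, and the low ligands Fgf17 (-0.46) and Fgf12 (-0.38). The adjusted p values of these named genes lay between 0.0946 and 0.243. The NP rats gave 5 of 66 (among them Ext2, Sulf2 and Fgf12, lower, and Extl3, higher), against 12.7% of all genes, and the LP rats 2 of 66 (Gpc3 and Etv1, lower), against 9.85%. The median of the 66 over both diets was -0.04, beside 0.02 over all tested genes.

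**Figure D5:**
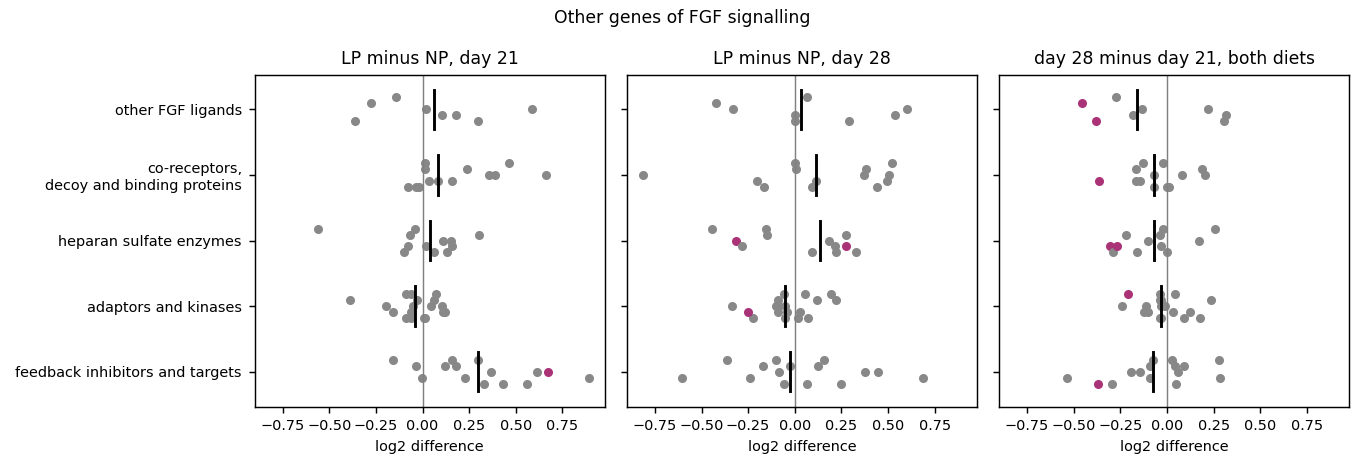
Log2 difference of each tested gene of 5 lists of FGF pathway genes (points, 66 genes in each panel), for LP minus NP at day 21, LP minus NP at day 28 and day 28 minus day 21 over both diets. Purple points passed an unadjusted p under 0.05 in limma, and black lines are the list medians. The feedback inhibitors and targets have a median of 0.30 at day 21 and -0.02 at day 28.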

How the data were processed

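Total RNA of the lumbar mammary gland of 12 rats was hybridised to single-colour (Cy3) Agilent arrays. The authors deposited the processed intensity of each spot from Agilent Feature Extraction 10.7.3.1, with background subtracted and trends within the array corrected, and before any scaling between arrays. They also deposited a table of the ratio of each signal to a constant of its array, which was used as an alternative. Rosetta Resolver, with which the study called genes, was not repeated.

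Groups and replicate names (such as 6a) follow the sample labels. Control and outlier spots were left out, and the deposited intensity was taken as log2 minus the log2 of the 75th percentile of the array (1451 to 2369.6 units), without a pseudocount. Spots of a probe were averaged. Members were found by gene symbol in the scanner files. The 23209 of 30367 probes that the scanner software placed well above background on 3 or more of the 12 arrays were fitted with limma 3.58.1 in R 4.3.3 as 4 groups of 3 (8 residual and 1.95 prior degrees of freedom). The fit was tried on simulated data with 200 changed probes. Their set change was larger than any member difference, so that the trial does not measure detection at the sizes reported here. Correlations were tested with 100000 permutations of the 12 arrays, regardless of group, in numpy. The number of arrays limits the precision.

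The members, lists and tests were chosen with earlier results of these data known. The named genes are all members with every probe and, from each pathway list and comparison, up to 3 genes with an unadjusted p under 0.05 and the lowest p. Etv4, Etv5, Dusp6 and Spry4 were named after their values were seen. A gene that the rule names but the text does not is not reported here. Alternatives were quantile normalization, normexp with an offset of 50, other filters, fits, blocks and covariates, the mean over the probes of a gene, the deposited table, and leaving out each array.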

Additional observations from a re-analysis of the deposited data

How the results depend on the processing

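Of the 60 member differences, the 6 that passed kept their direction in all of the 23 alternatives in which they were computed, and 31 of the 54 others changed sign in at least 1. The 6 were picked by their p and cover only Fgfr1, Spry1 and Spry2 in comparisons that share samples. Many alternatives leave out a single array, and the deposited table holds the same signal over a constant of each array. A kept direction is thus no separate support. No member had an adjusted p under 0.05 in any alternative. Counts of members with an unadjusted p under 0.05 moved as follows, with the share of all tested probes beside them. In the main fit that share was 4.36% for diet at day 21 and 8.07% at day 28. For age it was 12.8% in NP rats, 10.1% in LP rats and 19.2% over both diets, and for the change of the diet difference 2.26%. Fitting only the arrays of the contrast gave 0 (not 1) for LP against NP at day 21 (share 4.14%). It gave 0 (not 1) for the NP rats between the ages (share 10.2%). The slide row as a covariate gave 0 (not 1) at day 21 (share 2.26%) and 2 (not 1) for the LP rats between the ages (9.7%). The normexp background gave 2 (not 1) for the LP rats (share 7.26%) and 1 (not 3, Fgfr1 alone) for both diets (19.2%). Leaving out each array in turn gave 0 to 2 at day 21 (share 2.08% to 8.63%) and 0 to 1 at day 28 (3.8% to 14.8%). It gave 0 to 1 for the NP rats (7.47% to 16%) and 1 to 2 for the LP rats (7.27% to 12.4%). Over both diets it gave 2 to 3 (14.8% to 21%), and for the change of the diet difference 0 to 1 (1.66% to 3.71%). At day 21 the count was 0 without LP d21 6a (share 2.08%) or NP d21 6a (2.66%). It was 2, with Fgfr4 added, without NP d21 5a (5.73%), LP d21 4a (8.46%) or LP d28 6f (3.77%). The causes were not tested.

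Replicate numbers occur in several groups. Deviations from the group mean correlated between same-numbered arrays at 0.09 and 0.13 for diet at day 21, 0.10 and 0.09 at day 28, 0.03, 0.17 and 0.14 for age in NP rats and 0.38, 0.21 and -0.06 in LP rats. The labels do not say what the numbers mark, and they were not taken to pair the samples. If they mark litters, the age comparisons treated rats of the same litter as separate. All 3 NP arrays of day 28 correlated best with their own number, as did 2 of the 3 LP arrays. The number as a replicate block joins same-numbered rats of both diets, which had different dams. With it, the diet count at day 21 was 3 (not 1: Fgfr3, Spry1 and Spry2), while 8.13% (not 4.36%) of all probes passed. At day 28 it was 2 (not 0: Fgf7 and Fgfr3), with 7.59% (not 8.07%) of all probes. For age in LP rats it was 2 (not 1: Spry1 and Spry2), with 10.1% of all probes. The other 3 counts were the same. With diet and number together as a random block, the counts were those of the main fit. Groups of 3 arrays and, for Fgfr4, a signal near background limit what can be detected.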
